A study of Mus musculus with 21 samples.

Results

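Classical cadherins and protocadherins are the adhesion receptors described here, as 10 genes of mouse embryonic stem cells that had been differentiated into embryoid bodies for 4 days. The members were chosen by name as 4 classical cadherins (Cdh1, Cdh2, Cdh3 and Cdh11) and 6 protocadherins (Pcdh1, Pcdh7, Pcdh8, Pcdh10, Pcdh18 and Pcdh19), and all 10 were found among the 55487 counted gene IDs. Total RNA was sequenced from cells sorted on PDGFRalpha, which Pdgfra encodes, and FLK1, which Kdr encodes. SP cells had FLK1 without PDGFRalpha and DP cells had both. In the reporter line (T-GFP; Etv2-tdTomato), both gates were also split by the red tdTomato protein, which reports the ETS factor Etv2, into SP Etv2-positive, SP Etv2-negative, DP Etv2-positive and DP Etv2-negative cells. All 4 of these groups carried both reporters. A second set held SP cells of the doxycycline-inducible line (iEtv2), given doxycycline at 2 µg/ml from day 2.5, and, from the A2lox.Cre line as wildtype (WT), SP and DP cells, for which no doxycycline is given. There were 7 groups of 3 libraries (21 libraries), and levels were compared within a set only. The labels do not say whether replicates were separate cultures, so p-values measure the spread between these samples, which may be technical. All lines had been kept on irradiated feeder fibroblasts and then without feeders before differentiation.

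Classical cadherins are transmembrane proteins that bind the same or a related cadherin on the next cell in the presence of calcium. Their cytoplasmic tails hold p120-catenin and beta-catenin, and alpha-catenin links that complex to actin. Protocadherins have a cadherin-type outer part but lack the catenin-binding tail, adhere more weakly, and several of them recruit the actin-regulating WAVE complex. During gastrulation, epithelial cells that form mesoderm lose E-cadherin (Cdh1) and gain N-cadherin (Cdh2). Protocadherin 8 (Pcdh8, paraxial protocadherin in frog and fish) is known from the paraxial mesoderm that forms somites.

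Promoter sequences of 5 members (Pcdh7, Pcdh8, Pcdh10, Pcdh18 and Pcdh19) were in the RefSeq table on GRCm38.p6, each running from 250 bases before the gene start to 50 after it. Those of Pcdh8 (chr14:79771263-79771562, minus strand), Pcdh19 (chrX:133688944-133689243, minus strand) and Pcdh18 (chr3:49757267-49757566, minus strand) are shown, because Pcdh8 and Pcdh19 moved together in these data and Pcdh18 moved apart from them. Capitals mark matches to the motifs searched on both strands.
Pcdh8: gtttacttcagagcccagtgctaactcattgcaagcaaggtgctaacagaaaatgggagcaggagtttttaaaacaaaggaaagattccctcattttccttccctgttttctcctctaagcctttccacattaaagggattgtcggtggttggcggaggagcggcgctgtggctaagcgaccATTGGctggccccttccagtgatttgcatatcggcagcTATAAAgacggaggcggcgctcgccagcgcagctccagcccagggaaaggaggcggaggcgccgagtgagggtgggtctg
Pcdh19: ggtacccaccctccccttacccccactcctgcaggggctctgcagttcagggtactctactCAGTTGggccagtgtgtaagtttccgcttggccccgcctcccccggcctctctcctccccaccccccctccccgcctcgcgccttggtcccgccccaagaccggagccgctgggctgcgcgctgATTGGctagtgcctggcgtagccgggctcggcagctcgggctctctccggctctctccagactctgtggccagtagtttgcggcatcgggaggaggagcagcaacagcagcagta
Pcdh18: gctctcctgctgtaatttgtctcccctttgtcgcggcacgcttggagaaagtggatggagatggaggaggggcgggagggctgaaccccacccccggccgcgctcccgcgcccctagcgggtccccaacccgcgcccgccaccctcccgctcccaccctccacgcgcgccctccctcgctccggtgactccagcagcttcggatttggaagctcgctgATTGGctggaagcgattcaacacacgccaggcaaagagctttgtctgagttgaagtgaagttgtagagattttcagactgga

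The motifs were the E-box CANNTG (in 72.3% of the 32544 promoters of this length), its subset CACCTG (20.3%), the T-box half-site TCACACC (3.95%), the ETS core CCGGAA (15.0%), the homeobox site TAATTA (5.29%), TATAAA (13.6%) and the CCAAT box CCAAT (37.4%), which was added after the sequences had been read. Every CACCTG match is also an E-box match. The Pcdh8 promoter has TATAAA at -30 from the start and ATTGG, the reverse complement of CCAAT, at -68. In the Pcdh19 promoter, ATTGG stands at -65 and the E-box CAGTTG at -189. Pcdh18 has ATTGG at -32 and no other match. The promoters of Pcdh8, Pcdh18 and Pcdh19 hold no match to the T-box, ETS or homeobox letters in these windows. Their GC contents were 54.3%, 63.0% and 67.7%, against a median of 53.0% over all promoters. A match is a description of these letters and not a shown binding site.

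On the mm10 build, Cdh1 lies at chr8:106603351-106670246, the P-cadherin gene Cdh3 at chr8:106510891-106557297 and Cdh11 at chr8:102632095-102785642. Cdh2 lies at chr18:16588877-16809246 and Pcdh1 at chr18:38185914-38212053. Pcdh7 lies at chr5:57717967-58133230, Pcdh8 at chr14:79766775-79771312, Pcdh10 at chr3:45378398-45435623, Pcdh18 at chr3:49743296-49757325 and Pcdh19 at chrX:133582860-133688987. All are annotated as protein-coding. Exons of Pcdh7 share 2235 bases with the antisense gene 4932441J04Rik, exons of Pcdh8 share 436 bases with the antisense gene Gm9748, and exons of Pcdh10 share 154 bases with the antisense gene 1700027H10Rik. Exons of Pcdh19 share 57 bases with the antisense gene Gm26851, whose counts were not analysed here. The strand setting of the counting is not given in the sources used here, so reads of these overlapping parts could belong to either gene. The counted levels of the partners were low, at 19 to 84 counts a library for 4932441J04Rik 0 to 2 for Gm9748 and 0 for 1700027H10Rik. Of windows of 50 bases, 74.9% were unique to Pcdh7, 91.3% to Pcdh8, 96.8% to Cdh11 and 98.7% to Pcdh10, and every window of the other 6 members was unique. Both strands were searched, and the shared windows of Pcdh7, Pcdh8 and Pcdh10 were shared only with the antisense genes named above.

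Reporter-line libraries held 25045553 to 32777143 counts in genes, and second-set libraries 22406153 to 28184904. A count of 3 in a library, taken as the detection floor, corresponded to 0.0915 to 0.134 CPM (the count scaled to a common library size). Floors cover counting error only. Pdgfra, Kdr and Etv2 were compared as a check of the sort. Pdgfra averaged 37.5 CPM in SP Etv2-positive, 51.7 in SP Etv2-negative, 149.8 in DP Etv2-positive and 253.3 in DP Etv2-negative cells, and was lower in WT SP than in WT DP cells by a log2 fold change of -2.99 ± 0.29. Kdr was at 437.5 to 603.6 CPM in all 4 reporter-line groups. It was lower in DP Etv2-positive than in DP Etv2-negative cells (-0.42 ± 0.12, edgeR adjusted p = 0.0158). Among Etv2-positive cells Kdr was higher in SP than in DP (0.46 ± 0.12, edgeR adjusted p = 0.0215). Pdgfra also fell with the reporter in DP cells (-0.76 ± 0.19, edgeR adjusted p = 0.00868). In iEtv2 SP cells it was lower than in WT SP cells (-2.57 ± 0.32), so compared groups differed in the sorting genes. Etv2 averaged 58.4 CPM in DP Etv2-positive against 20.2 in DP Etv2-negative cells, 89.0 in SP Etv2-positive against 26.6 in SP Etv2-negative cells, and 238.6 in iEtv2 SP against 93.6 in WT SP cells. SP Etv2-negative replicate 2 and SP Etv2-positive replicate 3 had ribosomal RNA shares of 1.40% and 1.28%, above the 0.212 to 0.432% of the other 10 reporter-line libraries. Second-set libraries had shares of 0.682 to 2.28%, with both of these extremes among the WT DP libraries.

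Cdh2 and Cdh11, a mesenchymal cadherin first described in bone-forming cells, were the most abundant members in 6 of the 7 groups. Levels between genes are given per kilobase of exon (CPM per kb). Cdh11 led in Etv2-positive cells, at 39.6 ± 9.85 CPM per kb in SP and 50.8 ± 2.51 in DP cells (SD, n = 3), with Cdh2 at 32.5 ± 6.89 and 34.5 ± 7.35 CPM per kb. The order was the other way round in Etv2-negative cells, where Cdh2 had 47.8 ± 3.44 CPM per kb in SP and 51.5 ± 5.40 in DP cells and Cdh11 had 33.5 ± 4.03 and 35.5 ± 3.28 CPM per kb. In the SP Etv2-positive cells the levels of Cdh11 and Cdh2 overlapped within their SDs. Pcdh18 was the third in all 4 reporter-line groups, at 15.3 to 20.6 CPM per kb, and Pcdh7 the fourth, at 7.53 to 12.4 CPM per kb. Cdh1, Cdh3, Pcdh1, Pcdh8 and Pcdh19 each stayed under 8 CPM per kb in these cells. Their order changed with the group: Pcdh8 had 6.82 ± 2.27 CPM per kb in DP Etv2-negative cells, above Cdh1 at 4.31 ± 0.67, and 0.141 ± 0.056 CPM per kb in SP Etv2-positive cells, under Cdh1 at 5.42 ± 0.64. In the last group Pcdh8 and Pcdh19 did not differ beyond their SDs.

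Pcdh10, a protocadherin known from the brain, was near the detection floor, with at most 3 counts in 10 of the 21 libraries. Reporter-line libraries held 1 to 17 counts of it, second-set libraries held 1 to 8, and it did not pass the filter on low counts, so 9 members were tested. Its highest values were 0.287, 0.455 and 0.580 CPM in SP Etv2-negative cells (8, 14 and 17 counts). The other 3 reporter-line groups held 0.0368 to 0.206 CPM (1 to 6 counts), with no overlap. No fold is given for this gene.

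**Figure D1:**
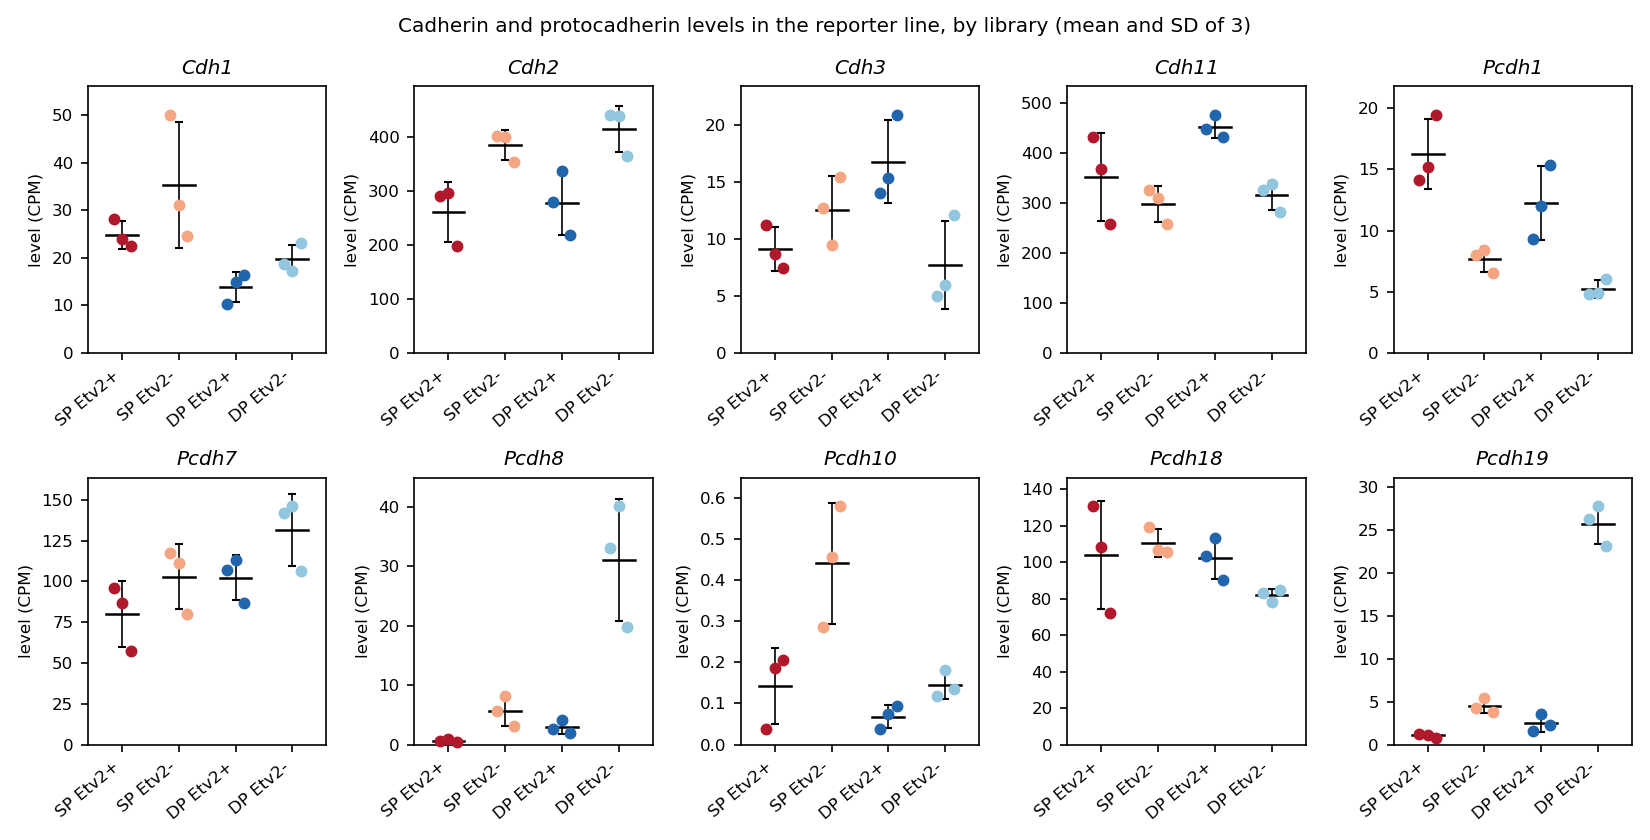
Level of each member (CPM, linear axis from 0) in the 12 reporter-line libraries. Points are libraries, bars the mean and whiskers the SD of 3. Pcdh8 and Pcdh19 stand far above the other groups in DP Etv2-negative cells, with means of 30.97 and 25.7 CPM, and Pcdh1 is higher in both Etv2-positive groups.

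The reporter comparison in DP cells asks how cells with tdTomato differ from cells of the same gate without it. The negative cells also held Etv2 message, at 18.1 to 23.2 CPM. Of the 9 tested members, 3 rose in DP Etv2-positive cells (Cdh3, Cdh11 and Pcdh1), 3 fell (Cdh2, Pcdh8 and Pcdh19) and 3 did not reach the threshold, an adjusted p (Benjamini-Hochberg) under 0.05 in edgeR's quasi-likelihood test over all genes. In that comparison 30.7% of the 17690 tested genes were called, 16% as higher and 14.7% as lower. The median log2 fold change was -0.36 over the 9 members and 0.00 over all tested genes. In sorted bulk samples, fewer cells of a type and less RNA per cell cannot be told apart.

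Pcdh8 and Pcdh19 showed the largest differences. Pcdh8 had 2.65, 4.20 and 1.92 CPM in DP Etv2-positive cells, against 33.0, 40.1 and 19.8 CPM in DP Etv2-negative cells. Every Etv2-positive library was far under every Etv2-negative one, and the log2 fold change was -3.42 ± 0.36 (SE, adjusted p = 2.59e-05), or 10.7-fold lower. Pcdh19, a protocadherin that associates with N-cadherin in zebrafish, had 1.62, 3.56 and 2.29 CPM in DP Etv2-positive cells, against 26.3, 27.8 and 23.2 CPM in DP Etv2-negative cells. Again the groups were far apart, at -3.37 ± 0.22 on the log2 scale (adjusted p = 9.33e-07). Pcdh1, a protocadherin known from airway epithelium, went the other way. It had 9.34, 12.03 and 15.3 CPM in DP Etv2-positive cells, against 4.78, 4.88 and 6.06 CPM in DP Etv2-negative cells, with no overlap and a log2 fold change of 1.22 ± 0.19 (adjusted p = 3.52e-04).

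Pcdh7, a protocadherin that acts in the ectoderm of the frog, had 106.7, 113.2 and 87.0 CPM in DP Etv2-positive cells, against 142.1, 146.1 and 106.2 CPM in DP Etv2-negative cells. The groups overlapped and the gene was not called at -0.36 ± 0.19 (adjusted p = 0.172). With the replicate number as a block, which paired these libraries, it was called at -0.36 ± 0.07 (adjusted p = 0.00189). Pcdh18, which binds the adaptor protein Dab1, had 90.5 to 113.3 CPM in DP Etv2-positive against 78.4 to 85.0 CPM in DP Etv2-negative cells. These ranges did not overlap, yet the log2 fold change of 0.32 ± 0.16 was not called (adjusted p = 0.145). Pcdh18 was called with only these groups in the fit (0.32 ± 0.09, adjusted p = 0.0270). It also passed without both SP libraries of high ribosomal RNA share (0.32 ± 0.09, adjusted p = 0.0232).

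Among the classical cadherins, Cdh2 had 280.5, 336.9 and 218.4 CPM in DP Etv2-positive cells, against 442.2, 439.1 and 365.3 CPM in DP Etv2-negative cells. All 3 positive libraries were under all 3 negative ones, and the log2 fold change was -0.58 ± 0.16 (adjusted p = 0.0156). Cdh11 had 448.1, 476.9 and 433.0 CPM in DP Etv2-positive cells, against 326.6, 337.8 and 282.6 CPM in DP Etv2-negative cells. It was higher in all positive libraries, at 0.52 ± 0.15 on the log2 scale (adjusted p = 0.0166). Cdh3, the cadherin of placenta and basal epithelia, had 14.1, 15.4 and 20.9 CPM in DP Etv2-positive cells, against 5.02, 5.94 and 12.1 CPM in DP Etv2-negative cells. The groups did not overlap, although replicate 3 of the negative cells came near the positive range, and the log2 fold change was 1.13 ± 0.29 (adjusted p = 0.00999). Cdh1 had 10.3, 14.9 and 16.5 CPM in DP Etv2-positive cells, against 18.7, 17.3 and 23.2 CPM in DP Etv2-negative cells, which did not overlap and did not pass the test at -0.50 ± 0.24 (adjusted p = 0.127). The calls of Cdh2, Cdh3 and Cdh11 were lost without single libraries, at folds of like size. Cdh2 missed the threshold without DP Etv2-negative replicate 2 (-0.54, adjusted p = 0.0524) or DP Etv2-positive replicate 3 (-0.43, adjusted p = 0.0597). When DP Etv2-negative replicate 2 was left out, Cdh3 missed it too (0.96, adjusted p = 0.0501). Cdh11 missed it without DP Etv2-negative replicate 3 (0.44, adjusted p = 0.0628) or DP Etv2-positive replicate 2 (0.47, adjusted p = 0.0526).

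Marker lists moved with these genes. Of 12 paraxial mesoderm genes, 10 were tested, 9 fell in DP Etv2-positive cells and 1 rose. Their summed level was 23.3 to 40.5 CPM in DP Etv2-positive against 201.3 to 261.1 CPM in DP Etv2-negative libraries, with Ripply2 at or under the floor in the positive cells. Of 14 primitive streak and nascent mesoderm genes 12 fell, with sums of 356.9 to 843.7 CPM against 1253 to 2055 CPM. The epithelial junction list summed to 988.9 to 1212 CPM in DP Etv2-positive and 408.8 to 612.9 CPM in DP Etv2-negative libraries. In that list 3 genes rose, among them the keratin genes Krt18 (2.06 ± 0.25) and Krt8 (1.58 ± 0.18), 3 fell and 8 were not called, with Cldn3 at or under the floor. Krt8 had 433.2 to 565.7 CPM in DP Etv2-positive against 138.5 to 230.6 CPM in DP Etv2-negative libraries. Krt18 had 306.2 to 412.5 against 63.1 to 132.9 CPM, so the sums rest largely on these 2 genes. Epcam went the other way, at 7.31 to 8.53 against 12.8 to 17.1 CPM. The mesenchyme and feeder fibroblast list summed to 451.0 to 660.7 CPM in DP Etv2-positive against 112.0 to 229.3 CPM in DP Etv2-negative libraries, and its members Lum, Dcn, Fap and S100a4 were at or under the floor in all 7 groups. Of 14 pluripotency genes 8 fell and none rose, of 13 tested endothelial genes 5 rose and 1 fell, and of 12 tested hematopoietic genes 4 rose and none fell. The part of other cell types in the cadherin changes was not tested.

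In SP cells the same split by tdTomato gave 1 member that rose (Pcdh1), 3 that fell (Cdh2, Pcdh8 and Pcdh19) and 5 not called. Over all genes 25.5% were called, 13.1% as higher and 12.4% as lower. Of the called genes 51.4% were higher with TMM scaling and 40.4% with upper-quartile scaling. The median log2 fold change was -0.46 over the members and -0.01 over all tested genes.

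Pcdh8 had 0.553, 0.927 and 0.445 CPM in SP Etv2-positive cells, against 5.70, 8.22 and 3.07 CPM in SP Etv2-negative cells. The positive libraries held only 13 to 25 counts of it, all under the negative ones, and the log2 fold change was -3.15 ± 0.48 (adjusted p = 6.39e-04). Pcdh19 had 1.25, 1.15 and 0.822 CPM in SP Etv2-positive cells, against 4.23, 5.43 and 3.82 CPM in SP Etv2-negative cells. It fell by 2.07 on the log2 scale (SE 0.26, adjusted p = 1.90e-04), with no overlap. Pcdh1 had 14.1, 15.2 and 19.5 CPM in SP Etv2-positive cells, against 8.03, 8.42 and 6.52 CPM in SP Etv2-negative cells. The groups were well apart, at 1.09 ± 0.18 (adjusted p = 0.00110).

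Cdh2 had 291.1, 296.6 and 197.8 CPM in SP Etv2-positive cells, against 401.7, 401.4 and 353.6 CPM in SP Etv2-negative cells. All positive libraries were lower, at -0.56 ± 0.16 on the log2 scale (adjusted p = 0.0225). This call was lost without SP Etv2-negative replicate 1 (adjusted p = 0.0650), without either library of high ribosomal RNA share (0.0611 and 0.0765) and without both (-0.36, adjusted p = 0.155). Cdh11 had 431.4, 368.4 and 258.1 CPM in SP Etv2-positive cells, against 326.8, 310.1 and 258.0 CPM in SP Etv2-negative cells. The groups overlapped and the gene was not called at 0.24 ± 0.15 (adjusted p = 0.251), but it passed without SP Etv2-positive replicate 3 (0.42, adjusted p = 0.0172). Cdh1 at -0.51 ± 0.23 (adjusted p = 0.119), Cdh3 at -0.46 ± 0.29 (0.267) and Pcdh18 at -0.09 ± 0.16 (0.706) were not called, with overlapping groups. Cdh1 was called without SP Etv2-negative replicate 3 (-0.71, adjusted p = 0.0377). Pcdh7 had 57.1 to 96.2 CPM in SP Etv2-positive and 80.0 to 117.4 CPM in SP Etv2-negative cells. It was not called without a block at -0.37 ± 0.19 (adjusted p = 0.181) and was called with it at -0.38 ± 0.07 (adjusted p = 0.00194). The paraxial list summed to 15.6 to 19.8 CPM in SP Etv2-positive against 46.2 to 72.4 CPM in SP Etv2-negative libraries, where 6 of its 10 tested genes fell and 1 rose, with Ripply2 at or under the floor in both groups. Hematopoietic genes summed to 310.1 to 534.0 CPM in SP Etv2-positive against 71.3 to 97.8 CPM in SP Etv2-negative libraries, and all 12 tested rose, with Ptprc and Hba-x at or under the floor in both groups. Of 13 tested endothelial genes 12 rose, with sums of 162.3 to 314.5 CPM in SP Etv2-positive against 51.6 to 83.9 CPM in SP Etv2-negative libraries. Of 14 genes in each list, 9 pluripotency and 8 primitive streak genes fell and none rose. Their part in the changes of the members was not tested.

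The difference between the reporter effects, SP minus DP, was called for 1 of 9 members, Cdh3. Over all genes 3.97% were called, 1.52% as higher and 2.45% as lower. These 702 calls became 114, 50 and 1268 without DP Etv2-negative replicate 1, 2 and 3, 211 without DP Etv2-positive replicate 3, 143, 367 and 162 without SP Etv2-negative replicate 1, 2 and 3, and 188 and 190 without SP Etv2-positive replicate 2 and 3. Cdh3 had 11.2, 8.68 and 7.43 CPM in SP Etv2-positive cells, against 12.7, 9.49 and 15.4 CPM in SP Etv2-negative cells. Its effect was downward in SP and upward in DP cells, a difference of -1.59 ± 0.41 on the log2 scale (adjusted p = 0.0484). That call held in 1 of the 12 fits that left out a library, the one without DP Etv2-negative replicate 3, and was lost in the other 11 (adjusted p of 0.0509 to 0.137). The reporter effects on Pcdh19 differed by 1.31 ± 0.35, which missed the threshold (adjusted p = 0.0570). With the replicate block the difference was called (1.32 ± 0.28, adjusted p = 0.0126), as it was with DESeq2 (adjusted p = 0.00354), without DP Etv2-negative replicate 3 (0.0436) and without DP Etv2-positive replicate 2 (0.0190). The reporter effect on Pcdh8 differed by 0.27 ± 0.66 (adjusted p = 0.870), an estimate too wide to show that the effects were alike.

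**Figure D2:**
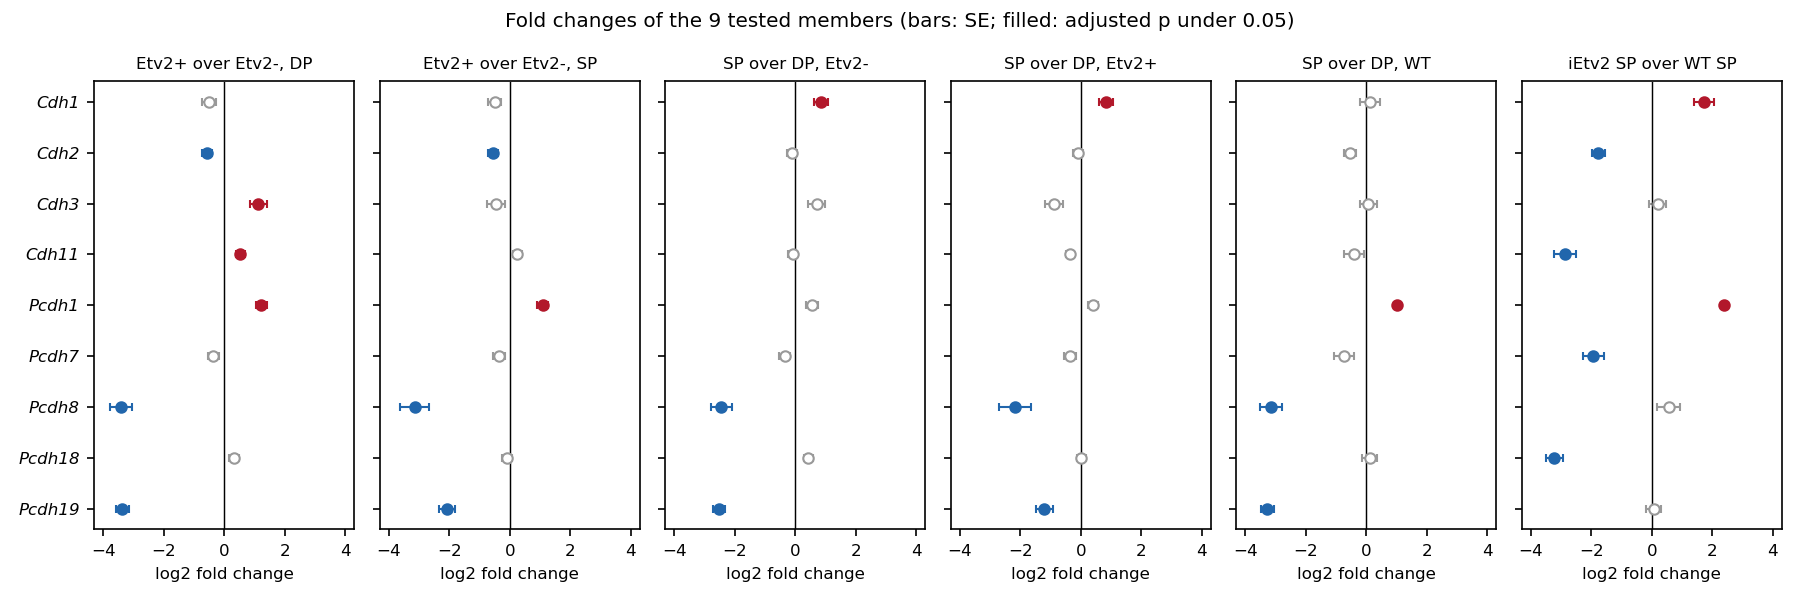
Log2 fold change of the 9 tested members in 6 comparisons, with the group named first over the one named after it. Points are estimates with their SE, filled where the adjusted p was under 0.05 (red higher, blue lower). Pcdh8 and Pcdh19 are lower in 5 of the 6 comparisons and not called in iEtv2 SP over WT SP cells, where Cdh11 and Pcdh18 are the lowest.

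The gate comparison asks what differs between FLK1-positive cells without and with PDGFRalpha. Among Etv2-negative cells, Cdh1 rose in SP over DP, Pcdh8 and Pcdh19 fell, and 6 members were not called, where 10.9% of all genes were called, 6.1% as higher and 4.84% as lower. These 1936 calls fell to 787 and 815 without DP Etv2-negative replicate 1 and 2, and to 1049 and 1092 without SP Etv2-negative replicate 1 and 3. The members' median log2 fold change was -0.08, against 0.00 over all tested genes. This comparison shares the DP Etv2-negative libraries with the reporter comparison in DP. Pcdh8, with the library values given above, had means of 5.67 CPM in SP and 30.97 CPM in DP cells and a log2 fold change of -2.45 ± 0.34 (adjusted p = 8.37e-04). Pcdh19 averaged 4.49 CPM in SP and 25.7 CPM in DP cells, at -2.52 ± 0.20 (adjusted p = 4.93e-05). Both genes were lower in every SP library than in any DP library. Cdh1 had 50.1, 31.1 and 24.5 CPM in SP Etv2-negative cells, against 18.7, 17.3 and 23.2 CPM in DP Etv2-negative cells. The lowest SP library lay just above the highest DP library, and the log2 fold change was 0.84 ± 0.23 (adjusted p = 0.0337). Without SP Etv2-negative replicate 1 it was 0.50 (adjusted p = 0.152), and the call was also lost without DP Etv2-negative replicate 1 (0.127) or 2 (0.138) and with only these groups in the fit (0.0507). Pcdh1 (0.55 ± 0.19, adjusted p = 0.0878) and Pcdh18 (0.43 ± 0.16, adjusted p = 0.101) had ranges that did not overlap but missed the threshold. Both passed with DESeq2 (adjusted p = 0.0391 for Pcdh1 and 0.0424 for Pcdh18) and with only these groups in the fit (0.0408 and 0.00395). Cdh3, at 0.70 ± 0.29 (adjusted p = 0.151), was called without DP Etv2-negative replicate 3 (1.19, adjusted p = 0.00721).

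Among Etv2-positive cells Cdh1 rose in SP over DP, Pcdh8 and Pcdh19 fell, and 6 members were not called, where 13.9% of all genes were called, 6.95% as higher and 6.94% as lower. These 2456 calls fell to 1359, 1593 and 1342 without SP Etv2-positive replicate 1, 2 and 3. The median over the members was -0.36, and -0.01 over all tested genes. Pcdh8 averaged 0.642 CPM in SP and 2.92 CPM in DP cells, at -2.17 ± 0.52 (adjusted p = 0.0156), and Pcdh19 averaged 1.07 CPM in SP and 2.49 CPM in DP cells, at -1.21 ± 0.28 (adjusted p = 0.0133). For Cdh1, the values were 28.04, 24.0 and 22.4 CPM in SP Etv2-positive cells, against 10.3, 14.9 and 16.5 CPM in DP Etv2-positive cells, which did not overlap (0.83 ± 0.24, adjusted p = 0.0336). None of the 3 calls held without SP Etv2-positive replicate 3, with adjusted p of 0.0548 for Cdh1, 0.0653 for Pcdh8 and 0.0582 for Pcdh19, nor without both libraries of high ribosomal RNA share (0.0678, 0.0542 and 0.0587). Cdh1 also missed the threshold without any other library of these groups except DP Etv2-positive replicate 3, and Pcdh8 without SP Etv2-positive replicate 1 (0.0574). Cdh3 (-0.89 ± 0.29, adjusted p = 0.0568) and Cdh11 (-0.36 ± 0.15, adjusted p = 0.120) were lower in all 3 SP libraries and were not called. Cdh3 passed with only these groups in the fit (adjusted p = 0.0289). With the replicate block both Cdh3 (0.0227) and Cdh11 (0.0146) passed. Paraxial genes moved with Pcdh8 and Pcdh19 in both reporter-line gate comparisons, where 5 of 10 tested fell in Etv2-positive cells and 7 of 10 in Etv2-negative cells and none rose. Of 12 tested hematopoietic genes 12 rose in Etv2-positive and 9 in Etv2-negative SP cells over DP cells, and of 13 tested endothelial genes 11 and 5 rose and 0 and 1 fell. Beside Cdh1, of 14 tested epithelial junction genes 2 rose and 1 fell in Etv2-positive cells. In Etv2-negative cells 6 of them rose and none fell. The part of these cell types was not tested. Cdh11 passed without SP Etv2-positive replicate 1 (-0.53, adjusted p = 0.0396), and Pcdh1, at 0.41 ± 0.17 (adjusted p = 0.138), passed without DP Etv2-positive replicate 3 (0.61, adjusted p = 0.0434).

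WT cells gave the gate comparison in a separate line. Pcdh1 rose in WT SP over WT DP cells, Pcdh8 and Pcdh19 fell, and 6 of the 9 tested members were not called, where 15.8% of the 16288 tested genes were called, 9.08% as higher and 6.76% as lower. These 2580 calls fell to 1509 without WT SP replicate 1 and to 1525 without WT DP replicate 3. The median was -0.41 over the members and -0.01 over all tested genes. Pcdh8 had 1.30, 3.04 and 2.25 CPM in WT SP cells, against 19.2, 19.8 and 19.4 CPM in WT DP cells. The DP libraries were nearly level and far above the SP ones, at -3.14 ± 0.36 (adjusted p = 2.79e-04). Pcdh19 had 1.69, 3.42 and 2.42 CPM in WT SP cells, against 24.0, 26.0 and 23.0 CPM in WT DP cells. It fell by 3.27 on the log2 scale (SE 0.23, adjusted p = 1.64e-05). Pcdh1 had 32.0, 33.0 and 34.3 CPM in WT SP cells, against 14.5, 19.0 and 15.4 CPM in WT DP cells, with no overlap, at 1.02 ± 0.11 (adjusted p = 1.48e-04).

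Cdh1, which was called in the gate comparison of the reporter line, had 70.1, 105.6 and 58.4 CPM in WT SP cells, against 68.3, 111.9 and 36.4 CPM in WT DP cells. These groups overlapped in full (0.11 ± 0.33, adjusted p = 0.875), and the difference between the lines was not tested. Cdh2 had 300.7 to 409.4 CPM in WT SP and 448.7 to 588.1 CPM in WT DP cells, and Pcdh7 86.7 to 143.3 CPM in WT SP and 146.3 to 238.0 CPM in WT DP cells. Neither pair of ranges overlapped, and neither gene was called, at -0.53 ± 0.20 (adjusted p = 0.108) for Cdh2 and -0.75 ± 0.33 (adjusted p = 0.162) for Pcdh7. With only WT libraries in the fit both were called (adjusted p = 0.0313 and 0.0427). Paraxial genes moved with Pcdh8 and Pcdh19 here too: 7 of 10 tested fell and none rose, and their sum was 50.6 to 74.3 CPM in WT SP against 289.0 to 329.1 CPM in WT DP libraries. All 12 tested hematopoietic genes rose, with sums of 447.9 to 551.2 CPM in WT SP against 60.9 to 84.1 CPM in WT DP libraries. Of 15 epithelial junction genes 4 rose and none fell, whereas Cdh1 was not called. Of 15 endothelial genes 13 rose and none fell, with Emcn at or under the floor in both groups. Of 14 primitive streak genes 6 fell and none rose. The part of these lists in the changes of the members was not tested.

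Induced Etv2 in SP cells was compared with WT SP cells. The line and doxycycline differ together with Etv2, so their effects cannot be told apart. Cdh1 and Pcdh1 rose in iEtv2 SP cells, Cdh2, Cdh11, Pcdh7 and Pcdh18 fell, and Cdh3, Pcdh8 and Pcdh19 were not called. Over all genes 50.8% were called, 26.4% as higher and 24.4% as lower. The median was 0.05 over the members and 0.00 over all tested genes. This comparison shares the WT SP libraries with the gate comparison in WT.

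Cdh1 had 272.9, 225.9 and 271.2 CPM in iEtv2 SP cells, against 70.1, 105.6 and 58.4 CPM in WT SP cells. All induced libraries were above all WT SP and WT DP libraries, and the log2 fold change over WT SP was 1.72 ± 0.33 (adjusted p = 0.00131). Cdh2 had 75.4, 144.6 and 103.9 CPM in iEtv2 SP cells, against 300.7, 409.4 and 391.4 CPM in WT SP cells. Every induced library was lower, at -1.77 ± 0.21 (adjusted p = 4.92e-05). Cdh11 had 19.1, 67.9 and 51.2 CPM in iEtv2 SP cells, against 274.8, 381.3 and 360.5 CPM in WT SP cells. It was 7.35-fold lower (-2.88 ± 0.36, adjusted p = 7.27e-05), and replicate 1 of the induced cells was the lowest. Cdh3 had 6.596 to 9.98 CPM in iEtv2 SP and 6.28 to 9.24 CPM in WT SP cells, which overlapped (0.20 ± 0.28, adjusted p = 0.584).

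Pcdh1 had 192.5, 165.7 and 163.6 CPM in iEtv2 SP cells, against 32.0, 33.0 and 34.3 CPM in WT SP cells. The replicates of each group lay close together, and the gene was 5.25-fold higher (2.39 ± 0.10, adjusted p = 7.73e-08). Pcdh18 had 5.68, 15.6 and 9.71 CPM in iEtv2 SP cells, against 80.4, 112.1 and 96.7 CPM in WT SP cells. With no overlap, it was 9.33-fold lower (-3.22 ± 0.28, adjusted p = 4.67e-06). Pcdh7 had 15.0, 48.2 and 29.8 CPM in iEtv2 SP cells, against 86.7, 143.3 and 125.7 CPM in WT SP cells. All induced libraries were lower (-1.94 ± 0.35, adjusted p = 8.46e-04). Pcdh8 had 1.496, 3.20 and 4.97 CPM in iEtv2 SP cells, against 1.30, 3.04 and 2.25 CPM in WT SP cells, and Pcdh19 had 3.34, 2.21 and 2.30 CPM in iEtv2 SP against 1.69, 3.42 and 2.42 CPM in WT SP cells. Both overlapped, at 0.56 ± 0.38 (adjusted p = 0.243) and 0.05 ± 0.24 (adjusted p = 0.873). Pcdh8 passed without iEtv2 SP replicate 1 (0.91, adjusted p = 0.0247).

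**Figure D3:**
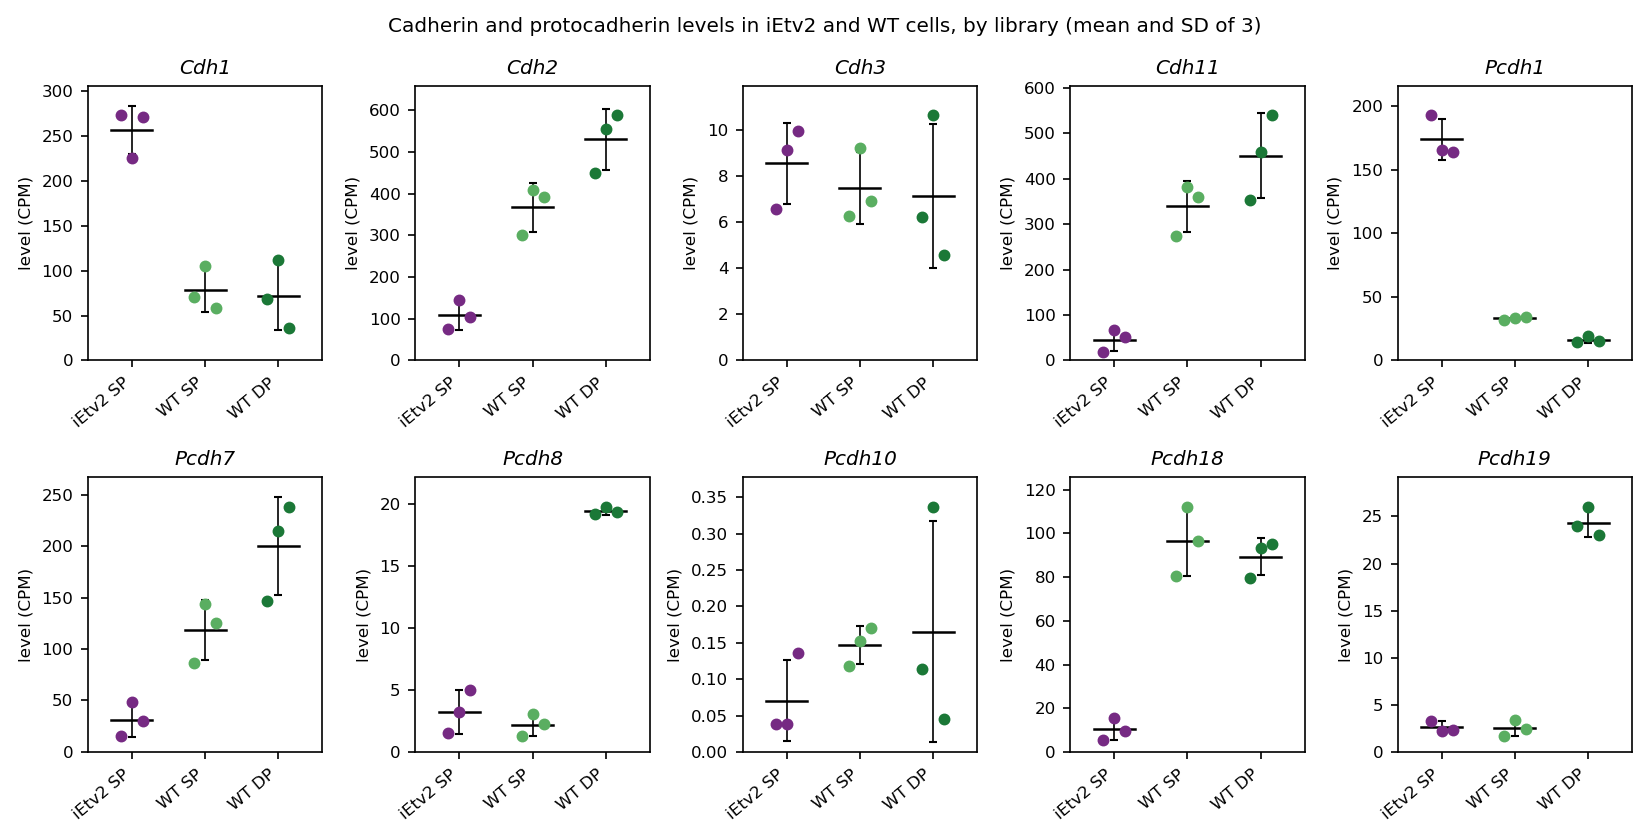
Level of each member (CPM, linear axis from 0) in the 9 libraries of the second set. Points are libraries, bars the mean and whiskers the SD of 3. In iEtv2 SP cells Cdh1 and Pcdh1 average 256.6 and 173.9 CPM, above both WT groups, while Cdh2, Cdh11, Pcdh7 and Pcdh18 lie under both, and Pcdh8 and Pcdh19 are high in WT DP cells.

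Other markers moved with induced Etv2. All 15 tested endothelial genes, Cdh5 among them, rose, and their sum was 2344 to 2988 CPM in iEtv2 SP against 242.3 to 325.6 CPM in WT SP libraries. Of these, Emcn was at or under the floor in all WT SP and WT DP libraries. It passed the filter only through iEtv2 SP cells, so its rise followed from the filter. Of 10 cardiac progenitor genes 9 fell and 1 rose, with sums of 58.8 to 80.9 CPM in iEtv2 SP against 871.1 to 949.0 CPM in WT SP libraries. Beside Cdh1, 11 of 15 tested epithelial junction genes rose, 2 fell and 2 were not called, with sums of 1536 to 1562 CPM in iEtv2 SP against 1095 to 1237 CPM in WT SP libraries. The largest rises were those of the tight-junction genes Ocln (3.38 ± 0.31) and Cldn3 (2.89 ± 0.45) and the epithelial factor Grhl2 (2.21 ± 0.27). Cldn3 had only 5, 16 and 9 counts in the WT SP libraries. The more abundant Tjp1 had 767.4 to 842.2 CPM in iEtv2 SP against 176.9 to 246.6 CPM in WT SP libraries. Krt8 was lower, at 103.6 to 165.7 CPM in iEtv2 SP against 471.9 to 554.3 CPM in WT SP libraries. So was Krt18, at 68.8 to 104.2 against 221.1 to 258.8 CPM. Of 14 pluripotency genes 10 rose and 1 fell, with sums of 980.8 to 1034 CPM in iEtv2 SP against 665.0 to 893.1 CPM in WT SP libraries. Among them Utf1 rose by 4.03 ± 0.42 and Pou5f1 by 2.56 ± 0.16. Endoderm genes summed to 428.5 to 447.0 CPM in iEtv2 SP against 96.2 to 115.9 CPM in WT SP libraries, where 3 of 7 tested rose and 1 fell, with Ttr and Afp at or under the floor in both groups. Sox7 is counted in both the endoderm and the endothelial list, so these lists are not independent. Of the 10 tested paraxial genes 6 fell and 3 rose, with sums of 40.1 to 48.4 CPM in iEtv2 SP against 50.6 to 74.3 CPM in WT SP libraries, whereas Pcdh8 and Pcdh19 were not called. Of 12 tested hematopoietic genes 5 rose and 4 fell. The part of these cell types in the changes of Cdh1, Cdh2, Cdh11, Pcdh1 and Pcdh18 was not tested.

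The make-up of classical cadherin messages was computed over 18 genes, as each gene's share of their summed CPM per kb. Cdh5 (VE-cadherin), the cadherin of endothelial junctions and no member, was counted among the 18. In iEtv2 SP cells Cdh5 made up 52.7 ± 6.53%, Cdh1 28.8 ± 7.71%, Cdh2 6.59 ± 1.22% and Cdh11 2.46 ± 1.04% (SD, n = 3). In WT SP cells Cdh2 made up 35.9 ± 1.86%, Cdh11 30.02 ± 1.59%, Cdh1 13.4 ± 3.07% and Cdh5 3.90 ± 1.34%. For each of these 4 genes, no iEtv2 SP library overlapped a WT SP library. In DP cells of the reporter line, Cdh11 made up 48.7 ± 3.02% in Etv2-positive against 31.8 ± 0.71% in Etv2-negative cells, and Cdh2 32.7 ± 3.53% against 46.2 ± 1.92%. In SP cells Cdh11 made up 41.1 ± 3.07% in Etv2-positive against 30.6 ± 0.91% in Etv2-negative cells, and Cdh2 33.8 ± 1.95% against 43.9 ± 1.40%. Shares add to a fixed total, so a rise of Cdh11 or Cdh5 lowers the others by construction.

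**Figure D4:**
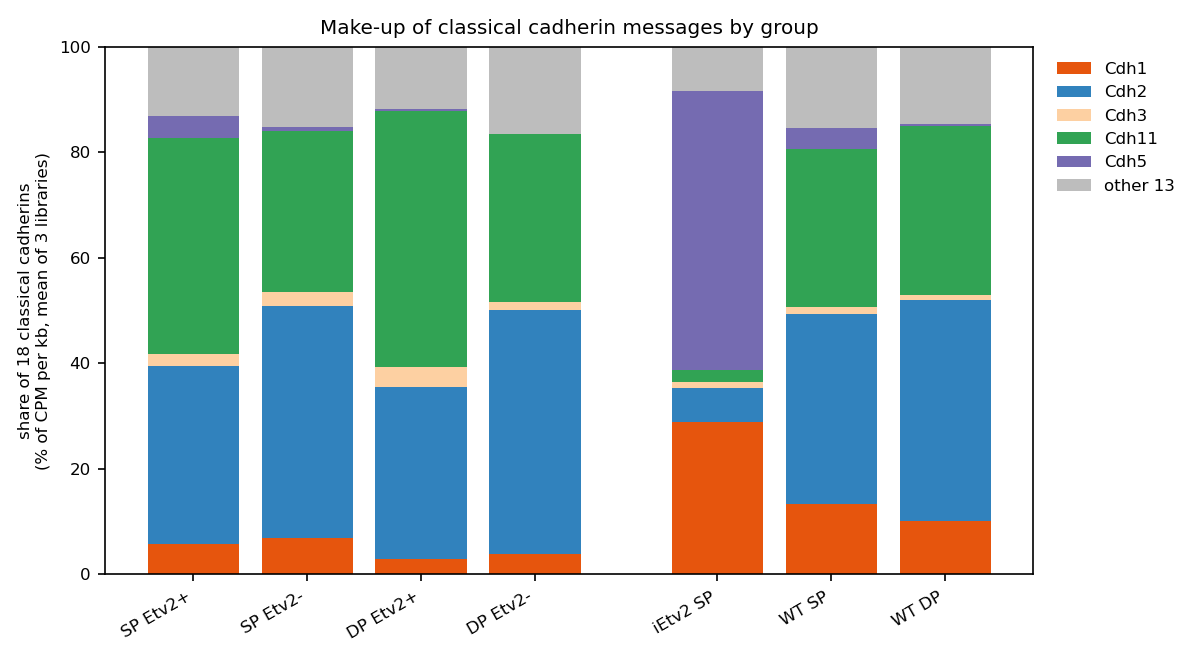
Share of each classical cadherin in the summed level of 18 (% of CPM per kb, mean of 3 libraries), for the reporter line at the left and the second set at the right. Cdh11 and Cdh2 make up most of the sum in all groups but iEtv2 SP, where Cdh5 reaches 52.7% and Cdh1 28.8%.

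Of the 14 other classical cadherins, 8 were tested. In DP cells with the reporter 2 rose and 2 fell: Cdh5 by 3.56 ± 0.75 and Cdh8 by 1.62 ± 0.27, against falls of Cdh4 (-1.10 ± 0.20) and Cdh6 (-0.71 ± 0.21). The DP Etv2-negative libraries held 3, 3 and 4 counts of Cdh5, at or near the detection floor, so the size of its fold is uncertain. In SP cells 3 rose, Cdh5 (2.45 ± 0.37), Cdh22 (1.49 ± 0.34) and Cdh8 (1.31 ± 0.27), and Cdh4 fell (-1.03 ± 0.20). With induced Etv2 all 8 were called, 4 up and 4 down, with Cdh5 at 4.47 ± 0.25 (450.8 CPM in iEtv2 SP against 20.3 CPM in WT SP cells). Among the 6 other non-clustered protocadherins 3 were tested in the reporter line and 4 in the second set. Pcdh12, an endothelial protocadherin, rose with the reporter, at 4.37 ± 0.38 in DP and 2.75 ± 0.26 in SP cells. The DP Etv2-negative libraries held 4, 5 and 6 counts of Pcdh12, near the floor, so the size of its fold in DP is uncertain. Pcdh17 fell in both gates, at -2.10 ± 0.24 in DP and -2.01 ± 0.29 in SP cells. Pcdh12 also rose with induced Etv2 (2.81 ± 0.15). Of the 9 large Fat, Dachsous and Celsr cadherins 7 were tested. In DP cells with the reporter 4 fell and 1 rose, and those that fell were Celsr3 (-1.64 ± 0.27), Fat3 (-1.02 ± 0.21), Fat4 (-1.01 ± 0.22) and Dchs1 (-1.01 ± 0.14). In SP cells with the reporter 2 fell and 1 rose. With induced Etv2 4 rose and none fell, with Celsr3 at 2.16 ± 0.28 and Fat4 at 1.31 ± 0.28.

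Catenins bind the tails of the classical cadherins. Of 9 tested catenins and armadillo partners 5 rose and 2 fell in DP Etv2-positive cells, where the gamma-catenin gene Jup rose by 0.81 ± 0.14 and the alpha-catenin gene Ctnna1 by 0.40 ± 0.06. In SP Etv2-positive cells 2 rose and 3 fell. With induced Etv2 7 rose and 1 fell (Pkp4, -0.74 ± 0.07), with Jup at 0.90 ± 0.12 and the alpha-catenin gene Ctnna2, at 2.59 CPM in iEtv2 SP against 0.305 CPM in WT SP cells, at 3.07 ± 0.38. The WT SP libraries held only 7, 9 and 7 counts of Ctnna2 and the WT DP libraries 5, 8 and 2. Ctnna2 passed the filter only through iEtv2 SP cells, so its rise followed from the filter and the size of its fold is uncertain. Of the 11 WAVE complex genes, 2 rose and 3 fell in DP Etv2-positive cells and 1 rose and 1 fell in SP Etv2-positive cells. Abi3 rose in both, by 2.78 ± 0.36 and 2.44 ± 0.25, at means of 1.19 CPM in DP Etv2-positive and 4.09 CPM in SP Etv2-positive cells. The DP Etv2-negative libraries held only 3, 9 and 3 counts of Abi3. With induced Etv2 7 WAVE genes rose and 1 fell. Of 7 repressors of Cdh1, 3 rose and 1 fell in DP Etv2-positive cells, 2 rose and 1 fell in SP Etv2-positive cells, and 1 rose and 4 fell in iEtv2 SP cells. Among them Snai1 fell in DP Etv2-positive cells (-1.48 ± 0.18), in SP Etv2-positive cells (-0.92 ± 0.18) and in iEtv2 SP cells (-2.21 ± 0.23), while Zeb1 rose in all 3 comparisons (0.47 ± 0.12, 0.40 ± 0.12 and 0.85 ± 0.11).

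Members varied together to different degrees. Likeness was measured as Pearson's r of log2(CPM + 1) over the 12 reporter-line libraries, with the r over the 9 second-set libraries beside it, as a description. Libraries of a group share their cells, so these values follow the group differences. Pcdh8 and Pcdh19 had r = 0.979 over 12 and 0.945 over 9 libraries. Pcdh1 and Cdh2 ran opposite to each other, at -0.872 and -0.964. Cdh2 and Cdh11 had an r of -0.178 over the reporter line and 0.989 over the second set. Among 9772 genes searched, Pcdh8 was most like Dact1 (0.997 over 12 and 0.832 over 9 libraries), Frzb (0.996 and 0.729) and Dlc1 (0.991 and 0.946). Pcdh19 was most like Sulf1 (0.993 and 0.980), Plxna2 (0.991 and 0.820) and Fut10 (0.991 and 0.837). The nearest genes to Pcdh1 were Cdc42ep1 (0.979 and 0.984), Adam15 (0.973 and 0.990) and Nav1 (0.970 and 0.902). For Cdh3 they were Erbb2 (0.982 and -0.033), Arhgap29 (0.977 and 0.476) and Fgfr3 (0.976 and -0.138), and for Cdh1 Prdm4 (0.953 and -0.535), Zfc3h1 (0.944 and 0.777) and Spast (0.925 and 0.498). The likeness found for Cdh3 and Cdh1 in the reporter line was weak or of opposite sign in the second set for several of these genes. Pcdh10 was nearest to Mindy2 (0.937 and -0.354), Spag1 (0.899 and 0.530) and Zfp2 (0.853 and -0.375), on a few counts a library.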

How the data were processed

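Total RNA of 21 libraries was measured. The deposited values are raw counts for Ensembl gene IDs, which the authors left unnormalized, and featureCounts and mm10 are named in the submitters' processing notes. The aligner and the strand setting are not given in the sources used here. The 9 second-set files also hold summary entries in the form that STAR writes, which entered neither library sizes nor tests. Of 55487 gene IDs, 55227 were named from GENCODE M21 and 260 were not.

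Tests used edgeR 4.0.16 in R 4.3.3: TMM scaling, filterByExpr, a quasi-likelihood fit with a term per group (12 reporter-line libraries together, 9 others together), two-sided, with Benjamini-Hochberg adjustment over all tested genes and a threshold of 0.05. SE is the size of the log2 fold change divided by the root of F. CPM values use TMM-scaled library sizes, and levels per kb use merged exons. All 10 members are named, with up to 4 called genes of a list in a comparison and the 3 most similar genes of members whose group means differ over 2-fold. The members, lists and rules were chosen with earlier results of these data known. Libraries of the same replicate number correlated over 0.1 in every pair, after group means were removed, for the reporter in DP (0.175 to 0.342) and in SP (0.143 to 0.268), so a replicate block was taken as paired there, from the data and not from the labels. Scripts were tested on simulated data. Alternatives were other scalings and filters, a replicate block, DESeq2 1.42.0, fits of only the groups compared, a 2-fold minimum, leaving out libraries, and no mitochondrial or ribosomal RNA genes. Levels and figures used Python 3.11.15, pandas 2.3.3 and matplotlib 3.10.9.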

Additional observations from a re-analysis of the deposited data

Results flagged for a closer look

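Cdh3 was singled out because its reporter effect differed between the gates by a test of the difference itself (-1.59 ± 0.41 on the log2 scale, SP minus DP, edgeR adjusted p = 0.0484). It was 1.13 ± 0.29 in DP and -0.46 ± 0.29 in SP cells. The value without both libraries of high ribosomal RNA share was -1.63 (adjusted p = 0.0905).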

How the results depend on the processing

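Over 63 member results and 1035 alternatives, 942 kept their side of the threshold, 41 lost a call, 52 gained one and no called value changed sign. Members called rose without a filter on low counts to 9 for the reporter in SP (4 with it), 8 and 7 for the gates without and with the reporter (3 each), 3 for the reporter by gate (1) and 6 for the gate in WT (3). The counts for the reporter in SP and the gate without the reporter then include Pcdh10, which the filter removes. Over all genes, fits without the filter called 4738 of 35472 for the reporter in SP. They called 2789 and 3128 for the gates without and with the reporter, and 3138 of 33280 for the gate in WT. DESeq2 gave 5 for the gate without the reporter, where it called 2232 of all 17690 genes, and 2 for the reporter by gate. A replicate block gave 6 for each reporter-line gate comparison, 2 for the reporter by gate and 5 for the gate in WT. Over all genes the block gave 2788 and 3370 calls for the gates without and with the reporter and 3242 for the gate in WT. Pairing did not hold for the 3 gate comparisons (lowest r 0.0962, 0.0767 and 0.0916), nor for induced Etv2 (-0.0763), although all 6 libraries of each gate comparison correlated best with their own number. For the reporter in DP and in SP, where the rule was met, the block changed no call but those of Pcdh7. Pairing was not checked for the reporter by gate, where the block changed the call of Pcdh19. Only WT libraries in the fit gave 5 for the gate in WT, where 2276 of 15390 genes were called. With 1 library left out, members called ranged from 4 to 6 and 3 to 5 for the reporter in DP and SP, 2 to 4 and 0 to 4 for the gates without and with the reporter, 0 to 2 for the reporter by gate, 3 to 3 for the gate in WT and 6 to 7 for induced Etv2. Without both libraries of high ribosomal RNA share, 0 members were called for the gate with the reporter and 0 for the reporter by gate. Over all genes, this left 2459 calls for the reporter in SP (4504 with them), 1106 for the gate with the reporter (2456) and 119 for the reporter by gate (702). For the last, DESeq2 gave 1289, the block 1537 and no filter 1740 calls, and only the compared groups gave 1324 for the gate with the reporter. A 2-fold minimum left 1276, 905, 494, 431, 269, 888 and 3148 calls in the order reporter in DP and SP, gate without and with the reporter, reporter by gate, gate in WT and induced Etv2. The cause of these moves was not tested. Depth limits Pcdh10, and Pcdh8 and Pcdh19 in SP Etv2-positive cells.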
